A study of Mus musculus with 24 samples.

Results

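Immediate early and stress response genes were followed through tumor progression in the MMTV-PyMT mouse. The 10 genes were Fos, Fosb, Jun, Junb, Egr1, Atf3, Ier2, Klf2, Klf4 and Dusp1, chosen by name through their Ensembl identifiers in the GENCODE M1 annotation, and they are 10 of the 37991 genes in the count table. Total RNA, depleted of ribosomal RNA, was sequenced from snap-frozen mammary tissue of 24 female mice. The PyMT mice were F1 females heterozygous for the polyoma middle T transgene, from FVB/N males carrying the MMTV-PyVT transgene bred with FVB females, and the controls were homozygous FVB females of the same age with no transgene. There were 3 PyMT and 3 FVB mice at 6 weeks of age (hyperplasia in PyMT), 8 weeks (adenoma or mammary intraepithelial neoplasia), 10 weeks (early carcinoma) and 12 weeks (late carcinoma), and none received a treatment. The mouse mammary tumor virus promoter limits the transgene to mammary epithelium, so that a PyMT sample held transformed epithelium together with the stroma of the tumor and an FVB sample held a whole normal gland.

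Immediate early genes are transcribed within minutes of a growth factor, a stress or an injury, without new protein synthesis, and their messenger RNAs are short-lived. Their transcription is driven largely by kinases of the mitogen-activated protein kinase (MAPK) cascade acting on factors already bound at their promoters. Polyoma middle T stimulates Shc and PI3-kinase, among others, and activates this cascade and the PI3-kinase pathway. Fos, Fosb, Jun and Junb are subunits of the AP-1 transcription factor, Egr1 is a zinc finger activator, Atf3 is a stress-induced repressor and activator of the CREB family, and Ier2 is a small nuclear protein induced together with them. Klf2 and Klf4 are Krüppel-like factors with strong expression in endothelium, Klf4 being also an epithelial differentiation factor, and Dusp1 is a phosphatase that switches MAPKs off.

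Promoter sequences of RefSeq (GRCm38.p6) were matched for 8 of the 10 genes. No promoter sequence was searched for Egr1 and Ier2. The 250 bases before the transcription start are given here for Fos and Atf3, with higher values in PyMT, and for Klf4 and Dusp1, with lower values. They are written 5′ to 3′ on the gene's own strand, and capitals mark the matches to the motifs searched.
Fos (chr12:85473640-85473889, plus strand): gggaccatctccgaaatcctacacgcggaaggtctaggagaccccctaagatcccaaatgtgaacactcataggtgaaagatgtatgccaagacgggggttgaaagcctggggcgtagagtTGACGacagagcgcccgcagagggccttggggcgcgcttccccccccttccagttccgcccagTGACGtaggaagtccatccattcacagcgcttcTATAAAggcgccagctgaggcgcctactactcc
Atf3 (chr1:191183334-191183583, minus strand): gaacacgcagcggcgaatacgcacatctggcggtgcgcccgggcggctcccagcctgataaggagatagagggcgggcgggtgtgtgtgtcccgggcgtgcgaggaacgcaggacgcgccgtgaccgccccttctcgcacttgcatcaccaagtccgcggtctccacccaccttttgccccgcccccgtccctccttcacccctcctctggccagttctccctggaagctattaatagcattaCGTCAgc
Klf4 (chr4:55532476-55532725, minus strand): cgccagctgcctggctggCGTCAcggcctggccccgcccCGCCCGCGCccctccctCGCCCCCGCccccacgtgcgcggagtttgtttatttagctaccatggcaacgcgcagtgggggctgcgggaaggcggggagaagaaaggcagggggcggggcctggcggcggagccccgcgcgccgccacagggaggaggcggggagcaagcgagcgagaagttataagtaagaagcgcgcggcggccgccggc
Dusp1 (chr17:26508473-26508722, minus strand): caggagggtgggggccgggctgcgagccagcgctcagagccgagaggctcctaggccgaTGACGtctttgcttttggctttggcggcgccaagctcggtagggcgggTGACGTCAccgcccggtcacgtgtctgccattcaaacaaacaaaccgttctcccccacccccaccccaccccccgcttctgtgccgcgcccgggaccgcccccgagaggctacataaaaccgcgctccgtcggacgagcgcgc
The motifs were searched as plain letters on both strands. They were the cyclic AMP response element (CRE) TGACGTCA, its first part TGACG, which lies inside it, the AP-1 site TGANTCA, the TATA box TATAAA, the EGR site GCGNGGGCG and the CArG box bound by serum response factor. TGACG was found in 7 of the 8 promoters, all but that of Jun, against 17.8% of the 32851 promoters of the same length. The whole CRE was found in Dusp1 alone, 143 to 136 bases before the start (1.55% of all promoters). The EGR site was found in Fosb, Klf2 and Klf4 (4.7%) and the TATA box in Fos, 33 to 28 bases before the start (12.4%). Neither the AP-1 site (6.75%) nor the CArG box (1.47%) was in any of the 8 windows. These are letter matches in a short window. The 8 windows held 58.4% to 74.0% G and C, against a median of 52.4% over all promoters. The shares of all promoters were not matched for this content. TGACG was in the promoters of Fos and Atf3, which had higher values in PyMT, and in those of Klf2, Klf4 and Dusp1, which had lower ones.

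The libraries held 6969375 to 13516601 counted reads (median 8280270). In 13 of the 24, 6 PyMT and 7 FVB, low counts were heaped at 8 to 25 reads (read packets), so that a low gene was counted at 0 or in steps. Packets were uneven within weeks. At week 6 every PyMT library had them, but in FVB only replicate 2. At week 10 every FVB library had them, but in PyMT only replicate 2. The genotype value without packet libraries therefore came from weeks 8 and 12 alone. The part of packets in the week 6 and week 10 differences was not tested. Summed over 10 skeletal muscle genes, 4 FVB libraries had over 10000 CPM (counts scaled to a common library size), with 16795 in week 6 replicate 2, 73614 in week 6 replicate 1, 73053 in week 10 replicate 3 and 42967 in week 12 replicate 1, against 4268 or less in every PyMT library. Of the tissue markers, luminal epithelial genes were present in all libraries (summed CPM 415 to 4266), whereas the lymphocyte markers Cd3e, Cd3g, Ms4a1 and Cd79a were each at 0 in several libraries of both genotypes. Where a call or direction of the 10 genes over all weeks changed without the packet or muscle libraries, both values are given. Values below are normalized counts, that is, counts divided by the size factor of the library. A gene was called where its adjusted p was under 0.05 and its change over 2-fold.

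Over all weeks, 12 PyMT against 12 FVB samples, 5 of the 10 genes were called. Atf3 and Ier2 rose in PyMT tissue, 2.76-fold and 2.09-fold, and Klf2, Klf4 and Dusp1 fell, with levels 6.88-fold, 5.41-fold and 2.53-fold higher in FVB. Fos also passed the adjusted p with 1.82-fold higher values, under the 2-fold limit. Fosb, Jun, Junb and Egr1 did not pass. The 2 higher calls stand against 8.51% of the 14918 tested genes called higher, the 3 lower calls against 17.2% called lower, and the 6 genes that passed the adjusted p at any fold against 51.1%. The median log2 fold change of the 10 genes was 0.36, against -0.03 for all tested genes. All 10 genes passed the filter on low counts.

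**Figure D1:**
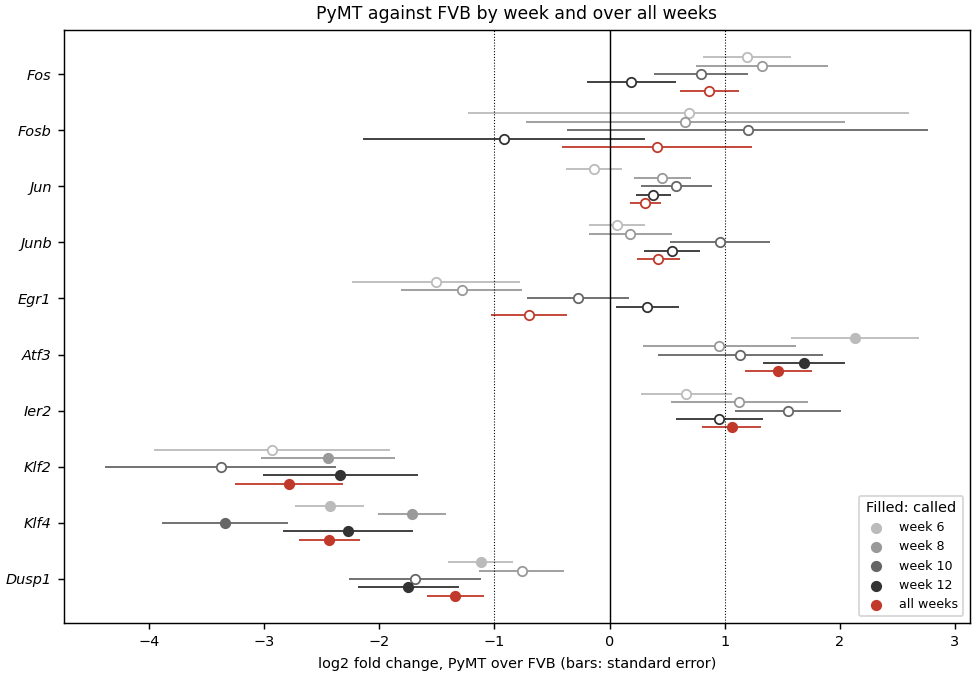
Log2 fold change of each gene, PyMT over FVB, at each week (3 against 3 samples, grey to black) and over all weeks (12 against 12, red), with the standard error as bars. Filled points were called and dotted lines mark 2-fold; Klf4 is filled at every week, whereas every point of Fosb, Jun, Junb, Egr1 and Fos is open.

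Fos (chromosome 12, 86814840 to 86818223, plus strand, mm9) encodes the subunit that gives AP-1 its short burst of activity. The 12 PyMT samples ran from 191 to 605 normalized counts (median 393) and the 12 FVB samples from 47.9 to 500.3 (median 208). At week 6 the PyMT samples had 418, 191 and 469.7 against 165, 177 and 130.4 in FVB, and at week 8 they had 398, 387 and 605 against 47.9, 258 and 257. All PyMT samples lay above all FVB samples at these weeks, while 36.6% of all tested genes at week 6 and 40.2% at week 8 had 3 PyMT and 3 FVB samples that did not overlap in one direction or the other. At week 10 the values were 212, 313 and 543 against 254, 146 and 239, and at week 12 they were 358, 363 and 404 against 373, 500.3 and 149, and the groups overlapped. The log2 fold change over all weeks was 0.86 ± 0.26 (SE; adjusted p = 0.00672), and by week it was 1.20 ± 0.38, 1.32 ± 0.57, 0.79 ± 0.41 and 0.19 ± 0.39, none of them called. The lowest FVB value, in week 8 replicate 1, came from a library with packets of 18 reads. Within the 11 libraries without packets the value, from weeks 8 and 12, was 0.76 (adjusted p = 0.166). Within the 13 with packets it was 0.70 (adjusted p = 0.273).

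Fosb (chromosome 7, 19888070 to 19895394, minus strand) encodes a partner of Jun proteins like Fos and was the least abundant of the genes. It ran from 0 to 60.8 in PyMT (median 25.3) and from 0 to 85.3 in FVB (median 23.0). The 5 libraries where it was counted at 0 all had packets, of 12 to 25 reads. In PyMT these were week 6 replicate 2 and week 12 replicate 1. In FVB they were week 6 replicate 2, week 8 replicate 1 and week 10 replicate 2. A count of 0 allows up to 3 reads (2.31 to 3.78 normalized counts) by the counting error of single reads alone. Packets would raise this limit by an amount that was not estimated. The log2 fold change of Fosb, 0.41 ± 0.82 (adjusted p = 0.705), was smaller than its error. It turned to -0.22 (adjusted p = 0.842) without the packet libraries.

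Jun and Junb encode the Jun-side subunits, Jun the stronger activator and Junb the weaker one that can oppose it. Jun (chromosome 4, 94715725 to 94718913, minus strand) overlaps the transcript BC042782 on the opposite strand. It ran from 531 to 1282 in PyMT (median 865) and from 416 to 883 in FVB (median 746), and 5 PyMT samples lay above every FVB sample. Junb (chromosome 8, 87500811 to 87502617, minus strand) ran from 263 to 681 (median 543) and from 138 to 605 (median 396). The log2 fold changes over all weeks were 0.31 ± 0.13 for Jun (adjusted p = 0.0534) and 0.42 ± 0.19 for Junb (adjusted p = 0.0600). At week 12 the PyMT samples of Jun (903, 925 and 1055) lay above the FVB samples (787, 704 and 803). At week 10 those of Junb (586, 615 and 525) lay above theirs (512, 261 and 138). Of all tested genes, 46.7% at week 12 and 40.5% at week 10 did not overlap, counting both directions. No week was called for either gene (lowest adjusted p = 0.102 for Jun and 0.137 for Junb, both at week 12). Without the muscle libraries Jun passed the adjusted p at 0.48 on the log2 scale (adjusted p = 0.00790), and without the packet libraries Junb did at 0.72 (adjusted p = 0.0305), both under 2-fold.

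Egr1 encodes a zinc finger activator of growth factor response, and its row overlaps Gm17507 on the opposite strand. The PyMT samples ran from 39.6 to 352 (median 201) and the FVB samples from 90.4 to 1023 (median 308). At week 6 they had 101, 39.6 and 209.9 against 90.4, 535 and 388, and at week 8 161, 180.0 and 343 against 357, 1023 and 313. At week 12 the order was the other way for 2 of the 3 PyMT samples, with 191, 352 and 274 against 204, 228 and 241. The log2 fold changes from week 6 to week 12 were -1.51 ± 0.73, -1.28 ± 0.52, -0.27 ± 0.44 and 0.33 ± 0.27, and the value over all weeks was -0.70 ± 0.33 (adjusted p = 0.0771). The edgeR interaction of genotype and week did not pass (adjusted p = 1.00, unadjusted p = 0.144). The value over all weeks was -1.41 (adjusted p = 0.0477) within the libraries with packets. Without them it was 0.20 (adjusted p = 0.747), from weeks 8 and 12 alone. Packets and age cannot be told apart here, and whether these values differ was not tested. Without the muscle libraries the value over all weeks passed the adjusted p at -0.81 (adjusted p = 0.0374), under 2-fold.

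Atf3 (chromosome 1, 192994175 to 193007219, minus strand) encodes a bZIP factor induced by the unfolded protein response, DNA damage and other stresses. The PyMT samples had 143, 104 and 182 at week 6, 136, 82.5 and 124 at week 8, 56.1, 135 and 134 at week 10 and 154, 115 and 152 at week 12. The FVB samples had 18.5, 30.9 and 48.5 at week 6, 16.4, 77.9 and 84.8 at week 8, 67.6, 18.0 and 67.3 at week 10 and 39.0, 49.1 and 47.0 at week 12. In total 10 of 12 PyMT samples lay above every FVB sample, and the groups did not overlap at weeks 6 and 12, as for 36.6% and 46.7% of all tested genes. Atf3 rose by 1.46 ± 0.29 on the log2 scale over all weeks (adjusted p = 0.000181), by 2.13 ± 0.55 at week 6 (adjusted p = 0.0426) and by 1.69 ± 0.36 at week 12 (adjusted p = 0.00978). It was 0.95 ± 0.66 at week 8 and 1.13 ± 0.71 at week 10 (adjusted p = 0.396 and 0.337). The all-weeks call held with each of the 24 libraries left out in turn (1.37 to 1.57). Atf3 was also called in the libraries without packets, from weeks 8 and 12 (1.25, adjusted p = 0.0468). Within those with packets it was 1.52 with adjusted p = 0.0843. In bulk tissue, more cells that express a gene and more RNA per cell cannot be told apart, for this gene and all others.

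Ier2 (chromosome 8, 87185230 to 87186751, minus strand) is a single-exon gene whose product acts in the nucleus in growth factor signaling. The PyMT samples had 242, 398 and 313 at week 6, 333, 299 and 443 at week 8, 342, 533 and 311 at week 10 and 204, 362 and 334 at week 12. The FVB samples had 96.2, 258 and 242, then 40.4, 179 and 279, then 124, 223 and 67.3, and at week 12 101, 242 and 139. All PyMT samples lay above all FVB samples at weeks 8 and 10, where the groups did not overlap for 40.2% and 40.5% of all tested genes, counting both directions. The log2 fold change over all weeks was 1.06 ± 0.26 (adjusted p = 0.00125) and no single week was called, the nearest being week 10 with 1.55 ± 0.46 (adjusted p = 0.0567). The call over all weeks stood close to the 2-fold limit. It was lost without FVB week 8 replicate 1 (0.96), without FVB week 10 replicate 3 (0.97) and without the 4 muscle libraries (0.93), each with an adjusted p of 0.00576 or less. Within the packet libraries the value was 0.98 (adjusted p = 0.125). Within the others, from weeks 8 and 12, it was 1.13 (adjusted p = 0.0257).

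Klf2 (chromosome 8, 74842932 to 74845555, plus strand) encodes a factor induced by blood flow in endothelium and needed for quiescence of T cells. The PyMT samples had 45.4, 0 and 47.7 at week 6, 29.6, 34.7 and 71.2 at week 8, 49.8, 5.24 and 47.8 at week 10 and 92.5, 13.9 and 48.1 at week 12. The FVB samples had 287, 192 and 248, then 428, 148 and 181, then 158, 125 and 859, and at week 12 323, 110.9 and 374. The highest PyMT value was below the lowest FVB value, so that the 12 samples of each genotype did not overlap. The same was so for 7.22% of all tested genes. The 0 came from PyMT week 6 replicate 2, the library with packets of 25 reads. It allows up to 3.13 normalized counts by the counting error of single reads alone. Packets would raise this limit by an amount that was not estimated. Klf2 fell over all weeks, with a log2 fold change of -2.78 ± 0.47 (adjusted p = 2.565e-05). It also fell at week 8 (-2.45 ± 0.58) and week 12 (-2.34 ± 0.67), with adjusted p of 0.0350 and 0.0338. Week 6 (-2.93 ± 1.02, adjusted p = 0.107) and week 10 (-3.38 ± 1.00, adjusted p = 0.0574) had larger values with larger errors and were not called. Week 6 was called without the library at 0 (-2.32, adjusted p = 0.0118). Over all weeks the value was -2.90 within the packet libraries (adjusted p = 0.0685) and -2.35 without the muscle libraries (adjusted p = 0.000508). Without the packet libraries, from weeks 8 and 12, it was -2.79 (adjusted p = 0.00264).

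Klf4 (chromosome 4, 55540013 to 55545347, minus strand) encodes a factor of epithelial barrier formation and of the endothelium, and it is one of the factors that reprogram cells to pluripotency. The PyMT samples had 77.5, 62.6 and 101 at week 6, 97.3, 143 and 120.0 at week 8, 47.2, 33.5 and 58.0 at week 10 and 23.6, 116 and 60.1 at week 12. The FVB samples had 488, 413 and 402, then 498, 372 and 321, then 207, 431 and 842, and at week 12 281, 223 and 498. The genotypes did not overlap at any week, as was so for 36.6%, 40.2%, 40.5% and 46.7% of all tested genes at weeks 6, 8, 10 and 12, each taken alone. Klf4 was the gene called at every week, and its log2 fold changes from week 6 to week 12 were -2.43 ± 0.30, -1.71 ± 0.29, -3.34 ± 0.55 and -2.27 ± 0.56 (adjusted p = 0.00276, 0.0124, 0.00546 and 0.0189). Over all weeks it fell by 2.44 ± 0.26 (adjusted p = 4.32e-08). The call over all weeks held under all 34 alternatives, with values from -2.64 to -1.87. Klf2 and Klf4 were the 2 of the 10 genes whose PyMT samples all lay below the FVB samples over the 12 and 12 libraries, as did 7.22% of all tested genes. None of the 10 had all PyMT samples above, as did 4.67% of all tested genes.

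Dusp1 (chromosome 17, 26642535 to 26645464, minus strand) encodes a nuclear phosphatase of p38, JNK and ERK that is itself an immediate early gene. The PyMT samples had 188, 189 and 306 at week 6, 171, 418 and 249 at week 8, 156, 203 and 259 at week 10 and 98.7, 184 and 219 at week 12. The FVB samples had 577, 452 and 455, then 624, 457 and 342, then 711, 191 and 1175, and at week 12 654, 275 and 820.1. The groups did not overlap at weeks 6 and 12 (36.6% and 46.7% of all tested genes did not), and the spread in FVB was widest at week 10, where the muscle library of replicate 3 was the highest of all 24. Dusp1 fell over all weeks, with a log2 fold change of -1.34 ± 0.25 (adjusted p = 7.99e-05). Of the single weeks, the first and the last were called, week 6 with -1.12 ± 0.28 and week 12 with -1.75 ± 0.44 (adjusted p = 0.0395 and 0.0202). It was -0.76 ± 0.37 at week 8 and -1.69 ± 0.58 at week 10 (adjusted p = 0.224 and 0.0882). Over all weeks it was -1.10 without the muscle libraries (adjusted p = 0.00154) and -1.10 within the packet libraries (adjusted p = 0.0640). Without the packet libraries, from weeks 8 and 12, it was -1.39 (adjusted p = 0.00669).

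**Figure D2:**
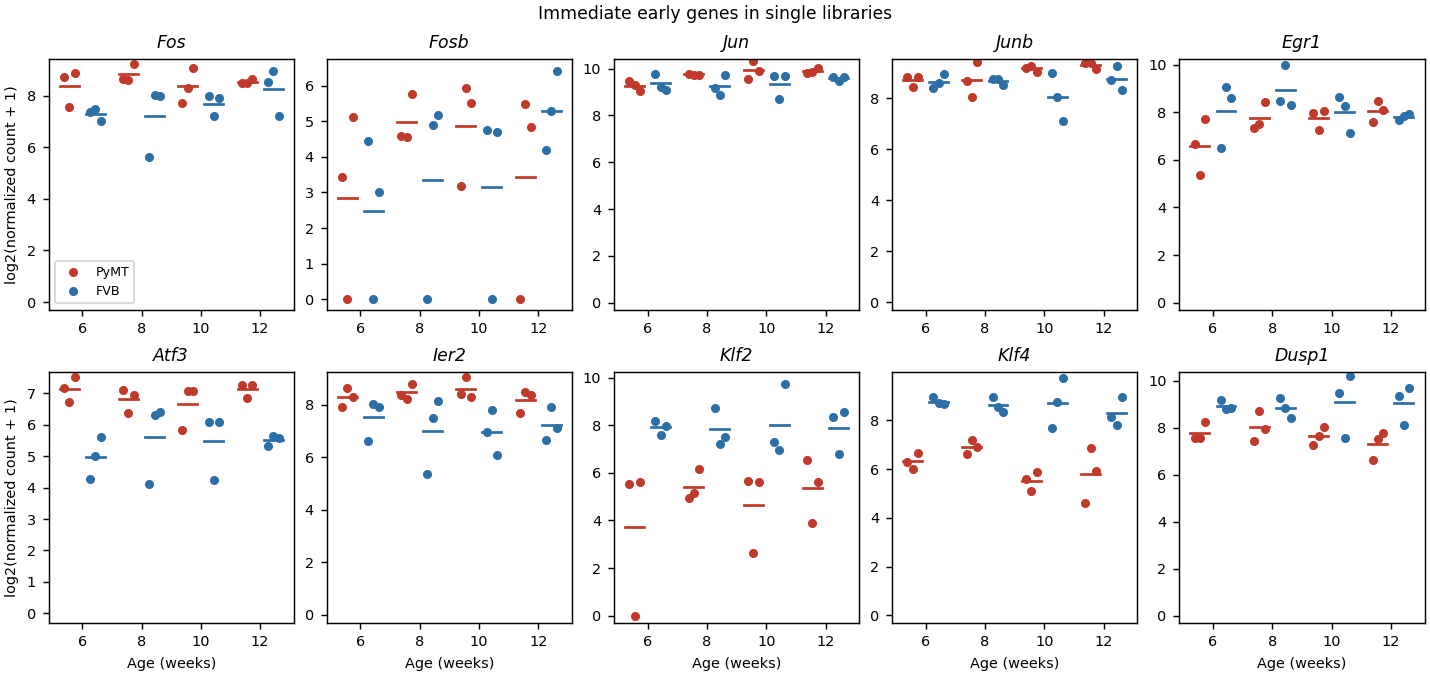
Log2 of the normalized count plus 1 for each of the 10 genes in each library, by age in weeks, with PyMT in red, FVB in blue and a line at the mean of each group of 3. Klf2 and Klf4 do not overlap between the genotypes at any week, and Fosb is at 0 in 5 libraries.

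By week, the calls were Atf3 higher and Klf4 and Dusp1 lower at week 6, Klf2 and Klf4 lower at week 8, Klf4 lower at week 10, and Atf3 higher with Klf2, Klf4 and Dusp1 lower at week 12. Of all tested genes, 3.58%, 3.57%, 4.83% and 7.75% were called higher at weeks 6, 8, 10 and 12, and 6.46%, 6.37%, 9.09% and 13.0% were called lower. With 3 samples in a group, several weekly calls turned on single libraries. Klf4 at weeks 6 and 10 and Atf3 at week 12 kept the call with each of the 6 libraries left out. Atf3 and Dusp1 at week 6 and Klf2 at week 8 lost it with 5 of the 6 left out (all but PyMT replicate 2, PyMT replicate 3 and PyMT replicate 3, in that order). Klf4 at week 8 lost it without PyMT replicate 1 (-1.59, adjusted p = 0.0609). At week 12, Klf2 lost it with 4 of the 6 (PyMT replicates 2 and 3, FVB replicates 1 and 3), Dusp1 with 3 (PyMT replicates 1 and 2 and FVB replicate 3) and Klf4 with 2 (PyMT replicate 3 and FVB replicate 3), at adjusted p of 0.111 or less. Directions did not change in any of these. Other calls appeared when 1 library was left out: at week 6 Fos (1.55) and Klf2 without PyMT replicate 2, at week 10 Junb (1.58) without FVB replicate 1, Ier2 without FVB replicate 2 (2.07) or 3 (1.23) and Dusp1 (-2.14) without FVB replicate 2, and at week 12 Ier2 (1.33) without FVB replicate 2.

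The genotype difference of none of the 10 genes changed detectably with age. By edgeR the interaction of genotype and week was called for 0 of the 10 and for 0% of all genes (494 genes at an unadjusted p under 0.05, 17 called by DESeq2 and 4 by limma voom, none of them one of the 10). Across the 4 weeks within PyMT it was again 0 of the 10 and 0% of all genes (597 unadjusted, 87 by DESeq2 and 10 by voom, none of them one of the 10). Within FVB it was 0 of the 10 and 0.00670% of all genes, that is 1 gene (635 unadjusted, 46 by DESeq2 and 9 by voom, again none of the 10). The smallest unadjusted p among the 10 genes was 0.135 for the interaction (Klf4), 0.0628 across weeks in PyMT (Jun) and 0.156 across weeks in FVB (Egr1). The mean of Klf4 in PyMT was lower at weeks 10 and 12 (46.2 ± 12.3 and 66.7 ± 46.8, SD, n = 3) than at weeks 6 and 8 (80.3 ± 19.4 and 120.2 ± 23.1). The edgeR test among weeks had an unadjusted p of 0.0651 and did not pass after adjustment. Single samples overlapped, with week 12 replicate 2 (116) above every week 6 sample (62.6 to 101).

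The order of levels differed between genotypes. Compared per length, in CPM per kilobase of exon, FVB tissue had Jun (median 27.3, range 15.1 to 33.4), Junb (26.0) and Dusp1 (22.9) at the top, followed by Klf4 (15.7), Klf2 (14.0), Ier2 (12.1), Egr1 (11.6) and Fos (10.2), then Atf3 (2.79) and Fosb (0.71). In this order each gene was within the SDs of the next except Fos and Atf3. In PyMT tissue Junb (35.8, range 16.5 to 45.5) and Jun (32.5) were followed by Ier2 (25.9), Fos (19.4), Dusp1 (8.48), Atf3 (8.00), Egr1 (7.67), Klf2 (2.99), Klf4 (2.67) and Fosb (0.80). Neighbours differed beyond their SDs between Fos and Dusp1, between Egr1 and Klf2 and between Klf4 and Fosb. Dusp1, Klf4 and Klf2 thus ranked above Ier2 and Fos in FVB tissue and below them in PyMT tissue.

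The spread between single libraries of a group differed from gene to gene. The biological coefficient of variation estimated by edgeR was 23.3% for Jun, 31.9% for Junb, 39.8% for Klf4, 41.5% for Dusp1, 42.8% for Fos, 44.4% for Ier2, 46.8% for Atf3, 50.4% for Egr1, 77.0% for Klf2 and 133% for Fosb, against a median of 35.9% over all tested genes. Among genes of like abundance (within 1 log2 CPM), 94.4% had a smaller value than Klf2, 89.9% than Egr1, 88.2% than Dusp1, 87.3% than Fosb, 85.3% than Fos, 83.6% than Ier2, 75.4% than Klf4, 75.3% than Junb, 57.8% than Jun and 39.6% than Atf3. Over the 4 ages together, the highest FVB library exceeded the lowest 10.4-fold for Fos and 11.3-fold for Egr1. Within PyMT it was 3.17-fold and 8.87-fold. Libraries with packets are included in all of these values, and the part of packets in the spread was not tested.

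The rapidly induced genes differed in how closely they followed Fos from library to library. Over the 24 libraries, deviations from the group mean of log2 normalized counts were compared with those of Fos. Atf3 was the most like it (Pearson 0.69, permutation p = 0.00951, adjusted over the 9 other genes 0.0822; Spearman 0.58, permutation p = 0.0170, adjusted 0.101), followed by Fosb (Pearson 0.56, permutation p = 0.0183, adjusted 0.0822; Spearman 0.50, permutation p = 0.0223, adjusted 0.101). The Pearson values of the other 7 genes ran from -0.18 (Klf4) to 0.39 (Ier2), and none of the 9 passed 0.05 after adjustment. Without the 2 libraries farthest from the median of Fos, FVB week 8 replicate 1 and FVB week 12 replicate 3, the Pearson value was 0.63 for Atf3, 0.58 for Fosb and 0.09 for Ier2, so that the value of Ier2 rested on those libraries. Atf3 had 0.74 within PyMT and 0.68 within FVB, and Fosb had 0.65 within PyMT and 0.52 within FVB. Egr1 had 0.69 within PyMT and 0.12 within FVB, and Klf2 had 0.62 within PyMT and -0.42 within FVB. Whether these differ between the genotypes was not tested. PyMT week 6 replicate 2, with packets of 25 reads, had the lowest PyMT values of Fos (191), Egr1 (39.6) and Klf2 (0). The values within PyMT were not computed without this library. Over all 24 libraries the Pearson value of Klf2 was 0.13.

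**Figure D3:**
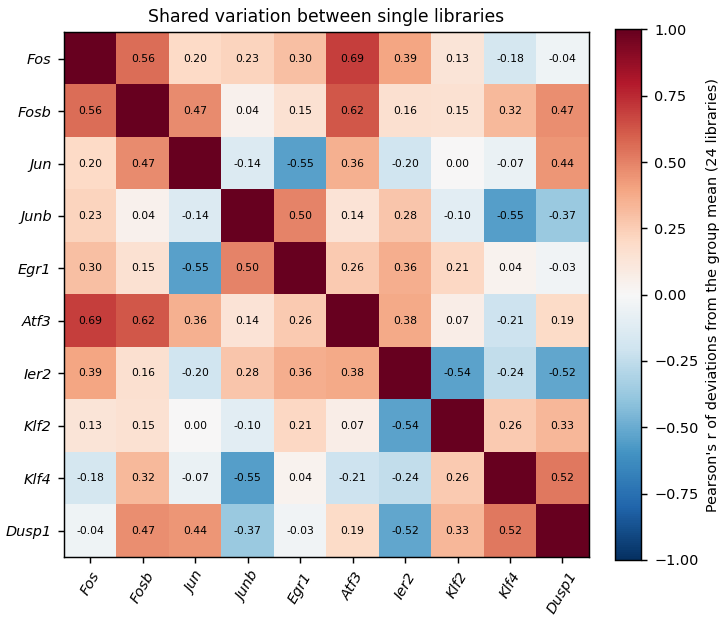
Pearson correlation of each pair of the 10 genes over the 24 libraries, each taken as deviations from the mean of its group of 3 on the log2 scale, from -1 (blue) to 1 (red). Fos, Fosb and Atf3 form the block of higher values (0.56 to 0.69), and Ier2 has negative values with Klf2 (-0.54) and Dusp1 (-0.52).

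As a description over all 45 pairs, the highest values were 0.69 for Fos and Atf3, 0.62 for Fosb and Atf3, 0.56 for Fos and Fosb, 0.52 for Klf4 and Dusp1 and 0.50 for Junb and Egr1. The lowest were -0.55 for Junb and Klf4, -0.55 for Jun and Egr1, -0.54 for Ier2 and Klf2 and -0.52 for Ier2 and Dusp1. The genes of a pair were read from the same 24 libraries and share their depth and packets. Among all 14917 other tested genes, Atf3 ranked 67th in likeness to Fos and Fosb 511th. The 10 genes outside the set with the highest likeness were Nt5dc2 (Pearson 0.83), Pde4b (0.81), Shisa2 (0.80), Mark2 (0.80), Ncam1 (0.79), Zfp248 (0.78), Nrm (0.77), Cenpt (0.77), Cobl (0.76) and Ep300 (0.76), given as a description with no test. None of the 40 other immediate early genes tested was among the 150 most like Fos, a group that holds 1.01% of all ranked genes. With so small a share, 0 of 40 does not set these genes apart. The median Pearson value of the 40 genes with Fos was 0.11, against 0.04 for all genes.

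Other immediate early genes had calls in both directions. Of 40 tested genes of a list of 41 other immediate early genes, 2 rose and 6 fell over all weeks and 32 were not called (median log2 fold change -0.35), beside 8.51% of all tested genes called higher and 17.2% lower. By size these were Egr3 and Egr2, zinc finger factors related to Egr1, at -3.31 ± 0.75 and -1.99 ± 0.54 (adjusted p = 0.000660 and 0.00361), Ier3, an inhibitor of apoptosis, at 2.49 ± 0.21 (adjusted p = 7.58e-10), and Gem, a small GTPase, at -2.35 ± 0.42 (adjusted p = 5.03e-05). Without the packet libraries Egr3 (-1.49, adjusted p = 0.0511) and Egr2 (-1.16, adjusted p = 0.0502) were no longer called. Of 10 tested genes among 13 other AP-1 and bZIP genes, 4 higher and 3 lower passed the adjusted p, each under 2-fold. Of all tested genes, 51.1% passed it at any fold, counting both directions. Fosl1 was counted at 0 in all 12 FVB libraries and in 10 PyMT libraries.

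The MAPK route upstream of the 10 genes and the genes that answer to it were read in the same way, and their counts stand beside the same 8.51% of all tested genes called higher and 17.2% called lower. Of 30 tested genes of the MAPK route and serum response factor, 1 was called over all weeks, the ERK-activated kinase Rps6ka1 at 1.99 ± 0.18 (adjusted p = 1.27e-09). Of 17 tested MAPK feedback genes, 4 rose and 1 fell. The largest were the ETS factors Etv1 (3.23 ± 0.24) and Etv5 (2.13 ± 0.19), the ERK phosphatase Dusp5 (3.08 ± 0.42) and, in the other direction, the p38 and JNK phosphatase Dusp10 (-2.29 ± 0.52; adjusted p = 0.000760). Dusp5 and Dusp1, phosphatases of the same family, moved in opposite directions. Of 13 heat shock genes 1 rose, Hsp90aa1 at 1.33 ± 0.11 (adjusted p = 4.91e-10). Of 8 tested genes among 11 other Krüppel-like factors, 2 fell, Klf15, a factor of adipose and muscle metabolism, at -2.77 ± 0.40 (adjusted p = 3.43e-06) and Klf12 at -1.14 ± 0.39 (adjusted p = 0.0170). Klf12 was no longer called without the packet libraries (-0.82, adjusted p = 0.0910), without the muscle libraries (-1.02, adjusted p = 0.0777), within the packet libraries (-1.56, adjusted p = 0.195), with library size as the only scaling (-0.86, adjusted p = 0.0688) or without PyMT week 6 replicate 1, where it came to -0.997 (adjusted p = 0.00135). The median log2 fold changes of these lists were -0.27 for AP-1 and bZIP, -0.18 for the MAPK route, 0.43 for feedback, 0.31 for heat shock and -0.76 for Krüppel-like factors, against -0.03 for all genes.

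**Figure D4:**
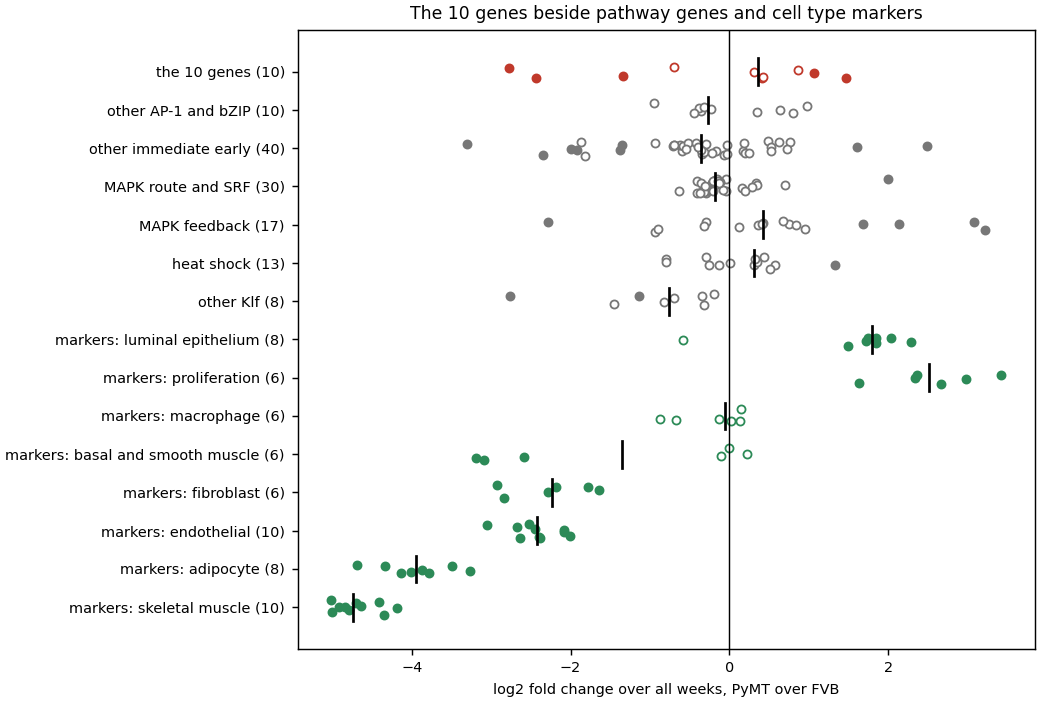
Log2 fold change over all weeks, PyMT over FVB, of the 10 genes (red), pathway lists (grey) and cell type markers (green), with the number of tested genes in brackets, filled points for called genes and a black line at the median. The 10 genes spread from -2.78 to 1.46, while endothelial and adipocyte markers all lie at the left.

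Markers of several cell types moved with genotype beside these genes. Summed over 10 endothelial markers, the PyMT libraries ran from 106 to 329 CPM and the FVB libraries from 806 to 1378, with no overlap, and 10 of 10 markers fell (median log2 fold change -2.42). Beside it, Klf2 stood at -2.78 and Klf4 at -2.44, and the part of the endothelium in their difference was not tested. All 8 adipocyte markers fell (summed CPM 97.9 to 1637 against 5114 to 13963, median -3.95), as did 6 of 6 fibroblast markers (1784 to 4193 against 5051 to 17197, median -2.24), 10 of 10 skeletal muscle markers (0 to 4268 against 9.69 to 73614, median -4.75), 3 of 3 tested erythroid markers (34.7 to 189 against 183 to 996, median -2.08) and 3 of 6 basal and smooth muscle markers (128 to 666 against 446 to 1526, median -1.35). The summed level rose for luminal epithelium, where 7 of 8 markers were called higher (2355 to 4266 against 415 to 2125, median 1.79). The other luminal marker passed the adjusted p in the lower direction, under 2-fold. Of 6 proliferation markers, 6 were called higher (799 to 1579 against 42.9 to 827, median 2.52). Of 6 macrophage markers 2 passed the adjusted p lower, under 2-fold (235 to 473 against 262 to 645, median -0.06), and the 1 tested lymphocyte marker stood at -0.05. The part of these cell types in the values of Atf3, Ier2, Klf2, Klf4 and Dusp1 was not tested.

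**Figure D5:**
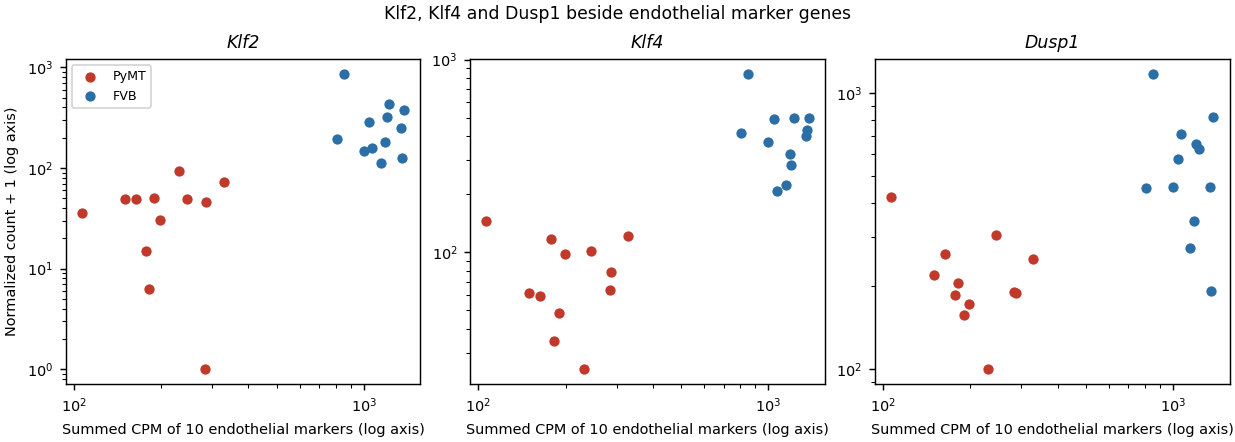
Normalized count plus 1 of Klf2, Klf4 and Dusp1 (vertical, log axis) against the summed CPM of 10 endothelial markers (horizontal, log axis) in each library, PyMT in red and FVB in blue. The genotypes separate on the horizontal axis (at most 329 CPM in PyMT, at least 806 in FVB) and for Klf2 and Klf4 also on the vertical one.

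Without the 4 muscle libraries Klf2 (-2.35), Klf4 (-2.23) and Dusp1 (-1.10) were still called. The FVB library with the highest values of Klf2 (859), Klf4 (842) and Dusp1 (1175), week 10 replicate 3, was one of these 4 and had packets of 19 reads.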

How the data were processed

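RNA from 24 frozen mammary samples (8 groups of 3) was sequenced by the authors. GSNAP aligned the reads to mm9 and HTSeq gave gene counts, and the deposited values are raw counts per Ensembl gene. The libraries were directional, but whether counting used strand, and the annotation used, are not given in the sources used here. Symbols and coordinates were taken from GENCODE M1. The transgene was not analysed here.

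The 14918 genes with at least 1 CPM in at least 12 of 24 samples were tested with edgeR 4.0.16 (TMM scaling, quasi-likelihood test, Benjamini-Hochberg adjustment over all of them), the 6 samples of each week alone, all weeks with week as a covariate, and all 8 groups for interaction and time. A call needed an adjusted p under 0.05 and over 2-fold. Normalized counts are counts divided by DESeq2 1.42.0 size factors, and CPM use TMM. Alternatives used DESeq2, limma 3.58.1, other scaling and filters, a replicate block and libraries left out. Leaving out muscle libraries, and the fit of packet libraries alone, were chosen after seeing the data.

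A library was said to have read packets where its histogram of counts over genes (Gaussian smoothing, SD 1.5 reads) had its main peak at 5 reads or above. Likeness used log2 of the normalized count plus 1 less its group mean, with 100000 two-sided permutations within groups. The fits were tested on simulated data. No 2 replicates were copies (lowest chi-square per gene 20.5 over 24 pairs). The labels give replicates as separate samples and the study's methods as separate mice. Intervals of counts of 0 cover the counting error of single reads only, not packets.

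The 10 genes and all lists were chosen with earlier results of these data known. Other genes were named by rule: up to 4 called genes per pathway list by size of change over all weeks, and the 10 genes most like Fos.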

Additional observations from a re-analysis of the deposited data

How the results depend on the processing

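Over all weeks the 5 calls (2 higher, 3 lower) stayed 4 to 5 with each library left out. Klf4 kept its call under all 34 alternatives, Atf3 and Klf2 under 33, Dusp1 under 32 and Ier2 under 29. With the packet libraries alone, 2 genes were called (Klf4 and Egr1), with fewer samples in the fit. With library size as the only scaling, the median log2 fold change of all genes over all weeks went from -0.03 to 0.26, Dusp1 came to -0.999 and was not called, and Fos was called at 1.14, as it was by limma voom at 1.00, where Ier2 was not (0.96).

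By week, the number of the 10 genes called depended on the method. Week 6 (3 called) gave 5 by DESeq2, week 8 (2 called) gave 1 in one fit of all samples, and week 10 (1 called) gave 4 by DESeq2, 2 by limma voom, 3 with no filter on low counts and 4 in one fit of all samples. With 1 library left out the number ran from 1 to 4 at week 6, 0 to 2 at week 8, 1 to 3 at week 10 and 1 to 5 at week 12. With a replicate block it was 1 at week 6, 1 at week 8, 3 at week 10, 4 at week 12 and 5 over all weeks. The block ended the calls of Atf3 and Dusp1 at week 6 (adjusted p = 0.0840 and 0.0735) and of Klf2 at week 8 (0.0676) and added Ier2 and Klf2 at week 10. The labels do not say that a number marks a shared litter or batch, and for that reason the main fits did not take the numbers as pairs. Deviations of same-numbered PyMT and FVB samples correlated at -0.03 to 0.18 (4 of 12 pairs over 0.1). Pairs with other numbers ran from -0.13 to 0.09. Of the 24 samples, 14 correlated best with their own number. This is a hint, from the data and not from the design, of something shared by number, and it was not tested. Over all genes, the number called at week 8 went from 1484 to 2493 by DESeq2, and over all weeks from 3840 to 7620 with no fold threshold and to 2246 with the packet libraries alone. It fell by over 1.5 times at week 6 (1498) without PyMT replicate 1 (857) or 3 (967), at week 8 without PyMT replicate 1 (513) or 3 (905) or FVB replicate 2 (684), and at week 10 (2076) without PyMT replicate 1 (1262) or 3 (1370). The cause was not tested.

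Directions turned only for genes that were not called. Jun at week 6 (-0.14) became 0.18 with library size only and 0.014 by limma voom, and ran from -0.22 to 0.13 with 1 library left out. Left-out libraries also turned Fosb (-0.82 to 2.06) and Junb (-0.031 to 0.28) at week 6, Junb at week 8 (-0.27 to 0.47), Egr1 at week 10 (-0.60 to 0.074) and Fos at week 12 (-0.17 to 0.53). Without the packet libraries Fosb (-0.22) and Egr1 (0.20) turned, in values from weeks 8 and 12 alone. The interaction, the tests across weeks and the likeness to Fos gave 0 of the genes under every alternative run. Depth limits Fosb most, at 0 to 92 reads a library.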
